A study of Mus musculus with 4 samples.

Results

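Cytochrome P450 (P450) genes and the genes of 3 families of conjugating enzymes were followed in the newborn mouse ureter and in the newborn mouse as a whole. The members are all probe sets that the platform annotation gives to exactly 1 gene symbol beginning with Cyp, Ugt or Sult and a number, or with Gst, a class letter and a number; Cyp26b1 and Cyp51 were left out. This gave 115 genes on 150 probe sets, out of 18193 genes on 34945 probe sets with 1 symbol. They are 71 P450 genes, 20 glutathione S-transferase (GST) genes, 13 sulfotransferase (SULT) genes and 11 UDP-glucuronosyltransferase (UGT) genes. A further 9 probe sets with several symbols, at least 1 of them of this kind, were not members, and the Ugt1 genes therefore have no member.

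Whole ureters of postnatal day 1 (Theiler stage 27) males of the FVB/N strain carrying the SMGA/EGFP transgene were measured on 3 Affymetrix MOE430 arrays, and a pool of whole FVB/N animals of both sexes without the transgene, at the same age, on 1. SMGA stands for smooth muscle gamma-actin and EGFP for a green fluorescent protein. The ureters were cut away from kidney and bladder and not pooled, and all 4 samples had 2 rounds of RNA amplification. Tissue, sex, transgene and pooling differ together between the groups and cannot be told apart. Nothing states that the ureters came from separate animals, so the p-values measure the spread between these samples only, which may be technical, and the single reference array was taken to vary like the ureters.

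P450 enzymes are haem proteins that oxidise lipids, steroids, vitamins, drugs and other foreign compounds. UGT, SULT and GST enzymes attach glucuronic acid, sulfate or glutathione to such compounds or to their oxidised products, which makes them more soluble and easier to excrete. Many of the genes are expressed mainly in the liver, others in intestine, kidney, lung or skin, and a few in almost every cell.

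Levels are given as log2 of the quantile-normalized intensity after adding an offset of 12.23, and a difference is the ureter mean (n = 3) minus the reference, ± the standard error (SE) that limma gave it. Each gene is read from its brightest tested probe set, and levels of different genes are not compared. A level counted as background when it did not exceed the brightest of 27 bacterial control probe sets on the same array, which lay at 6.66, 7.58 and 7.12 in ureter replicates 1, 2 and 3 and at 7.05 in the reference. Urothelium markers (7 of 11 tested higher) and smooth muscle markers (5 of 7) were higher in the ureters, as with the uroplakin gene Upk3a at 14.75, 13.79 and 14.34 against 8.50 and the smooth muscle myosin gene Myh11 at 14.50, 15.06 and 15.01 against 11.72. Not all markers did so: the basal keratin gene Krt5 lay at 12.20, 11.36 and 12.01 under 13.60, and the muscle filament gene Des at 10.09, 10.12 and 10.05 under 11.45, both without passing. Over all genes tested 3.04% were higher.

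Among the members the ureter held far more transcripts that were low against the whole body than transcripts that were high. Gsta4 and Cyp7b1 rose, at 4.50-fold and 7.13-fold the reference, and 19 genes fell, led by the drug-oxidising P450 genes Cyp3a25, Cyp2d10, Cyp3a11, Cyp2f2 and Cyp2e1, the fatty acid hydroxylase gene Cyp4a14 and the glucuronosyltransferase gene Ugt2b35. Of the 115 genes, 34 were among the dimmest 40% of probe sets and were not tested, and 60 were tested and did not pass limma's adjusted p of 0.05. The 2 higher genes are 2.47% of the 81 tested, against 3.04% of all 13718 genes tested, and the 19 lower genes are 23.5%, against 4.85%. Of the 97 member probe sets tested, 4 passed as higher, where the share over all probe sets was 2.76%. As lower 20 passed, where it was 3.56%. The 4 higher ones belong to Cyp7b1, Gsta4 and Gstm1. The median difference was -1.02 over the members tested and 0.10 over all genes tested.

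The filter on dim probe sets shapes these shares. It used the mean of both groups, and in 29 of the 81 genes the ureter mean alone lay under its level of 7.08, so these were tested because of the reference, as were 907 of all genes. Of the 19 lower genes 12 were of this kind. In 16 of the 81 no ureter exceeded background, and in 39 all 3 did. Among those 39, Gsta4 and Cyp7b1 were higher and 4 genes lower (Cyp2e1, Ugt2b34, Gstm3 and Gstz1), with a median difference of -0.09; over all 11700 genes with that property 3.56% were higher and 2.44% lower and the median was 0.20.

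Every ureter lay below the reference for 52 of the 81 genes (64.2%, against 30.7% of all genes) and above it for 12 (14.8%, against 39.9%). The filter bears on these shares too, since 29 of the 81 genes, and 907 of all 13718, were tested because of the reference. By family, 13 of 50 P450 genes, 3 of 6 UGT genes, 2 of 18 GST genes and 1 of 7 SULT genes passed as lower. The share over all genes tested was 4.85%. The 2 higher genes were a P450 and a GST gene; by limma none of the UGT and SULT genes rose, and 0 did so at an unadjusted p under 0.05 either. Without ureter replicate 3 limma called 0 members higher (4 at an unadjusted p under 0.05) and 8 lower, of which 6 were P450 genes; without ureter replicate 2 it called 4 higher. With an offset of 50 in place of 12.23, 29 members were lower. How the counts over all genes moved under these settings is not reported here. In these bulk samples fewer cells of a type cannot be told apart from less RNA per cell.

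**Figure D1:**
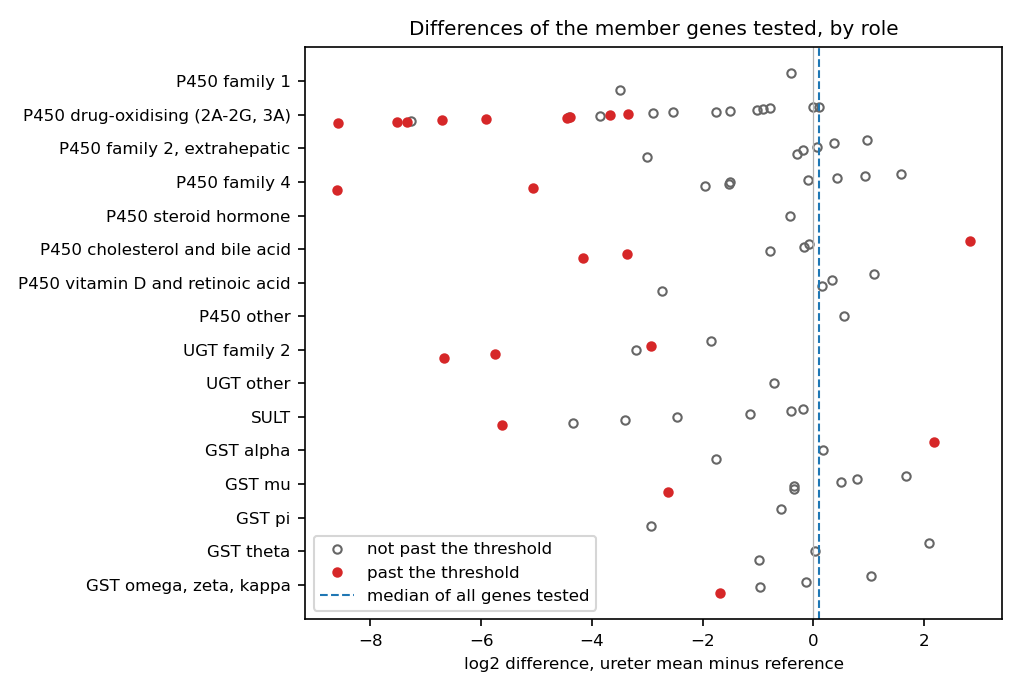
Log2 difference (ureter mean minus reference) of each of the 81 member genes tested, 1 point per gene, by role; filled points passed limma's adjusted p of 0.05 and the dashed line is the median of all genes tested, 0.10. The drug-oxidising P450 and UGT family 2 genes reach far to the left, while the GST genes lie on both sides of the line, between -2.93 and 2.17.

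The start sites of the members differed in a way the rule did not use. In RefSeq (GRCm38.p6) 107 promoters of 89 member genes were listed, and the 250 bases before each start were read. CpG dinucleotides, the sites of DNA methylation in mammals, were counted in each. The promoters of 2 genes that fell far, Cyp3a11 and Cyp2e1, are shown with those of 2 genes with no call, Gstp1 and Cyp2s1, to let the contrast in CpG be seen. CpG dinucleotides are in capitals, and each sequence is written 5′ to 3′ on the strand of its gene.
Cyp3a11, chr5:145879855-145880104, minus strand: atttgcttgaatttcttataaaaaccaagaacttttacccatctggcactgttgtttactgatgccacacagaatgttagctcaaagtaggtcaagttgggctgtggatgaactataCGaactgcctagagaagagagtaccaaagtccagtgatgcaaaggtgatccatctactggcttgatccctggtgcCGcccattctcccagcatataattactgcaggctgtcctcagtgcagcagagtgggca
Cyp2e1, chr7:140763569-140763818, plus strand: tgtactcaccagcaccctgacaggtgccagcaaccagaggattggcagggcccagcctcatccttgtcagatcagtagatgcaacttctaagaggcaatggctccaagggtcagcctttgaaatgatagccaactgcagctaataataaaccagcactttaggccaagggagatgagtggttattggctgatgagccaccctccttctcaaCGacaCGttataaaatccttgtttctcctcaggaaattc
Gstp1, chr19:4037913-4038162, minus strand: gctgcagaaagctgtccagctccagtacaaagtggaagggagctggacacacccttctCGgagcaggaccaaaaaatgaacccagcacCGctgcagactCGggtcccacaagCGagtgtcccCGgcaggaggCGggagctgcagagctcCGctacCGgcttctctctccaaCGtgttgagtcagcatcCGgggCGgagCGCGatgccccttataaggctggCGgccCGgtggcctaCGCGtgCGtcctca
Cyp2s1, chr7:25816526-25816775, minus strand: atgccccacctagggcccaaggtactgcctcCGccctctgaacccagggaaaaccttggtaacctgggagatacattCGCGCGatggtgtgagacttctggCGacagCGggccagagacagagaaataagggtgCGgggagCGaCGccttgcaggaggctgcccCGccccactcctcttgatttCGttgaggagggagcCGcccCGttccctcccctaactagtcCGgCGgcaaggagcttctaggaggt

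These windows hold 2 CpG in Cyp3a11, 2 in Cyp2e1, 18 in Gstp1 and 15 in Cyp2s1. The last 2 lie far above the median of 4 for tested members without a call. Others without a call had few, such as Sult1a1 with 0 and Cyp27b1 with 1, and Gstz1, called lower, had 13 at 1 start. Promoters of lower or background genes outside the members were not counted apart. Over all 32851 RefSeq promoters of this length the median was 6 CpG and 37.8% had 10 or more; over the 107 member promoters the median was 3 and the share 19.6%. The 16 promoters listed for 14 of the 19 genes that fell had a median of 2, and 1 of them (6.25%) had 10 or more. Cyp3a25 and Gstz1 entered with more than 1 start site, and the windows of Cyp3a25 are nearly the same. The 35 of members too dim to be tested were alike (median 2, 5.71%), and the 56 of members tested without a call had a median of 4 and a share of 32.1%. The 39 promoters of member genes above background in all 3 ureters had a median of 6 and a share of 41%, close to that of all promoters. None of the 14 promoters of tested members with no ureter above background had 10 or more, and their median was 1.5. Of the genes past the threshold, Gsta4, Cyp7b1, Cyp2c23, Cyp4a12a, Cyp4a14, Cyp7a1 and Sult2a2 had no promoter listed.

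**Figure D2:**
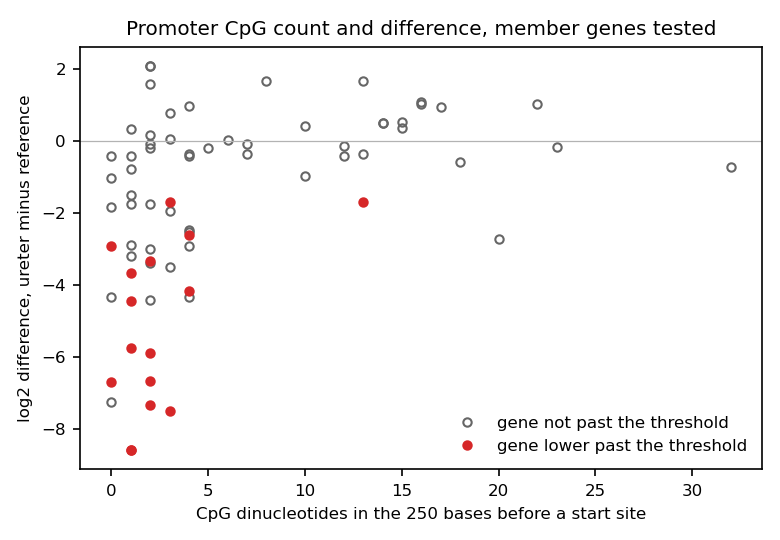
Number of CpG dinucleotides in the 250 bases before each listed start site (horizontal) and log2 difference of its gene, ureter minus reference (vertical), for member genes tested; filled points are genes that fell, and a gene with several start sites has several points. All but 1 of the filled points lie under 10 CpG, and so do many of the open ones.

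A few short motifs were searched on these windows. GCGTG, the core bound by the aryl hydrocarbon receptor, on either strand, was in 28.2% of all promoters, 21.5% of member promoters and 6.25% of those of genes that fell. TGACNNNGC, the core of the antioxidant response element that drives many GST genes, on either strand, was in 10.2%, 5.61% and 6.25%. The core promoter motif TATAAA, searched on the gene's strand only, was in 7.59%, 15.9% and 18.8%. A match describes the letters of a window only, and GCGTG holds a CpG itself.

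The P450 genes of subfamilies 2A to 2G and 3A oxidise drugs and other foreign compounds, and 32 of them were members. Of the 21 tested, 9 fell, where the share over all genes tested was 4.85%. None rose by limma's adjusted p (0 at an unadjusted p under 0.05). Every ureter lay below the reference for 19, as it did for 30.7% of all genes. The filter on dim probe sets bears on these counts: in 7 of the 21 no ureter exceeded background, and in 3 all 3 did. Cyp3a11 encodes the mouse enzyme closest in use to the chief drug-oxidising P450 of the human liver. Its levels were 6.85, 6.97 and 9.01 in the ureters and 14.95 in the reference, a difference of -7.34 ± 0.90 (SE; limma adjusted p = 0.0135). The groups were far apart; ureter replicate 3 stood above the other 2, and replicate 2 was at background.

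Cyp2e1, which oxidises ethanol and small solvents, lay at 8.50, 10.11 and 9.26 against 15.20 (-5.91 ± 0.64, limma adjusted p = 0.0106). Its deposited intensities were 258, 1107 and 549 in the ureters and 40913 in the reference. All 3 ureters were above background and far under the reference.

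Others were at background in all 3 ureters, so only a bound can be given. Cyp3a25 lay at 4.47, 4.10 and 3.88 against 12.74, at least 49.0-fold lower (limma adjusted p = 0.00962). Cyp2d10 lay at 5.96, 5.03 and 4.33 against 12.62, at least 45.1-fold lower (adjusted p = 0.0129), and Cyp2f2, known from the airway's club cells and from liver, at 4.64, 5.78 and 6.42 against 12.32, at least 36.6-fold lower (adjusted p = 0.0153). All 3 kept their calls in every alternative processing in which they were tested, as did Cyp2e1, Cyp3a11, Cyp4a14 and Ugt2b35.

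The smaller differences of this group were Cyp2c68 (-4.44 ± 0.84), Cyp2c23 (-4.39 ± 0.61), Cyp2d9 (-3.67 ± 0.76) and Cyp2b9 (-3.35 ± 0.61), each with every ureter below the reference and 1 or 2 ureters above background. The calls were kept in 9 of 12 alternatives for Cyp2c68, 10 of 11 for Cyp2c23, 6 of 10 for Cyp2d9 and 9 of 12 for Cyp2b9. Cyp2d26 did not pass in spite of a difference of -7.27 ± 1.59 (limma adjusted p = 0.0532), since its ureters were spread over 3.89, 8.31 and 5.30 against 13.10. It did pass in some alternatives, such as median-centred arrays and an offset of 50. Not all genes of the class were low: Cyp2d22 lay at 9.86, 8.94 and 9.73 around a reference of 9.52 (-0.01 ± 0.52), and Cyp2d13 at 8.16, 7.59 and 7.62 around 7.69. The direction of both turned under other processing and is not settled.

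**Figure D3:**
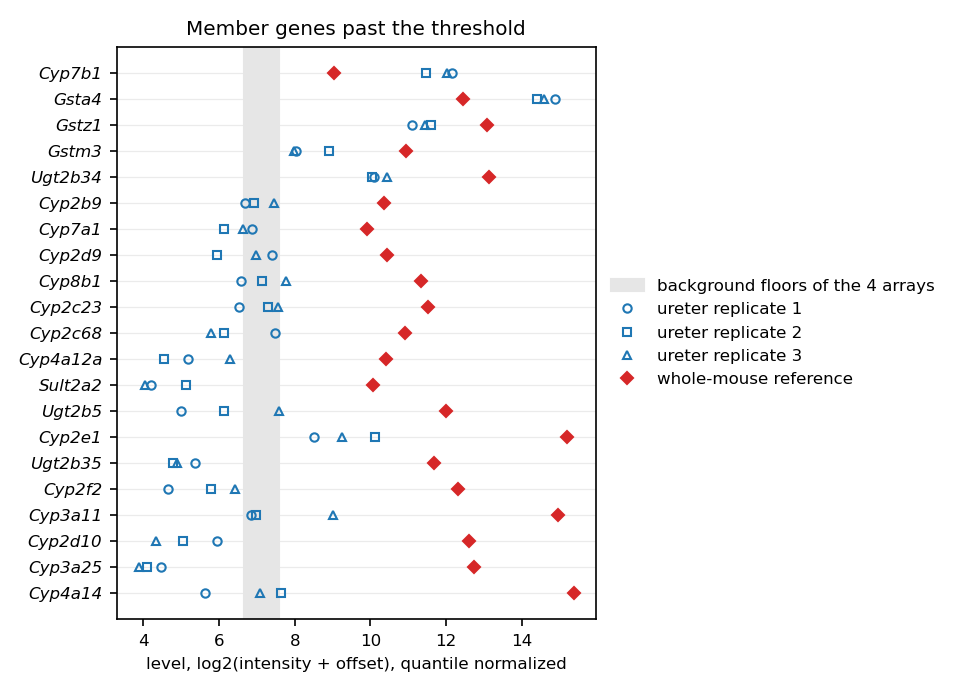
Levels, as log2(intensity + offset) after quantile normalization, of the 21 member genes past the threshold: open symbols are the 3 ureter replicates, red diamonds the reference, and the grey band spans the background floors of the 4 arrays, 6.66 to 7.58. Ureters and reference do not overlap for any of the 21 genes, which were selected by the threshold on these same values. Over all genes tested every ureter lay above the reference for 39.9% and below it for 30.7%. Most of the genes that fell have ureter symbols in or left of the band.

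The P450 genes of family 4 hydroxylate fatty acids and related lipids, and 13 were members. Of the 9 tested, 2 fell, where the share over all genes tested was 4.85%. Cyp4a14, which is switched on by fatty acids through the receptor PPAR alpha in liver, lay at 5.62, 7.62 and 7.07 against 15.37 (-8.60 ± 0.81, limma adjusted p = 0.00763). Only ureter replicate 2 was above its background, and barely so. Cyp4a12a lay at 5.18, 4.56 and 6.28 against 10.41, at least 9.74-fold lower (limma adjusted p = 0.0384), a call kept in 8 of 11 alternatives.

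Other family 4 genes were well above background in all ureters. Cyp4b1, known from lung, lay at 9.87, 9.47 and 9.29 under a reference of 11.49 without passing (-1.95 ± 0.43, limma adjusted p = 0.0554). Cyp4f15, at 10.74, 10.43 and 10.29, lay above a reference of 8.91 and did not pass either (1.58 ± 0.41, adjusted p = 0.0820). Cyp4v3, whose human counterpart is mutated in a crystalline eye disease, lay at 11.12, 11.65 and 11.27 over 10.41 (0.94 ± 0.39, adjusted p = 0.210), and a second probe set gave 1.51.

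The genes of cholesterol and bile acid metabolism held both directions. Cyp7b1, an oxysterol and steroid 7-alpha-hydroxylase gene of the alternative bile acid pathway, was the P450 gene that rose, at 12.15, 11.46 and 12.03 against 9.05 (2.83 ± 0.42, 7.13-fold, limma adjusted p = 0.0202). Its deposited intensities were 4713, 2763 and 4308 against 665, and every ureter was clearly above the reference. A second tested probe set gave 3.39 (adjusted p = 0.0155), and another, dim one, at 3.97, 4.20 and 3.93 against 5.60, was not tested. The call was lost without ureter replicate 3 (adjusted p = 0.102) and with the mean of its probe sets (1.55, adjusted p = 0.0787).

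Cyp7a1, the rate-limiting enzyme of the classical bile acid pathway, and Cyp8b1, which directs it to cholic acid, fell. Cyp7a1 lay at 6.87, 6.12 and 6.64 against 9.90 (-3.36 ± 0.68, limma adjusted p = 0.0424), and Cyp8b1 at 6.57, 7.13 and 7.78 against 11.32 (-4.16 ± 0.64, adjusted p = 0.0225). Each exceeded background in 1 ureter only, and the calls were kept in 7 of 10 and 11 of 12 alternatives. Cyp27a1, the mitochondrial sterol 27-hydroxylase found in many tissues, was nearly level, at 9.25, 9.33 and 9.33 against 9.38, and Cyp39a1, which acts on 24-hydroxycholesterol, lay at 10.02, 9.82 and 9.73 under 10.63 (-0.78 ± 0.40) without passing.

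No gene of family 1 passed by limma, and 1 of the 2 tested had an unadjusted p under 0.05. Cyp1b1, an extrahepatic oxidase of oestrogens and aromatic compounds, was bright in both groups, at 11.70, 13.06 and 11.97 around 12.64 (-0.40 ± 0.55), and its dimmer probe sets gave 2.07 and 0.88, so its direction is uncertain. Cyp1a2, a liver enzyme that oxidises caffeine, was at background in every ureter, at 6.49, 5.68 and 6.64 against 9.77, and just missed the threshold (limma adjusted p = 0.0506). Cyp1a1, the classical target of the aryl hydrocarbon receptor, was at background on all 4 arrays and was not tested.

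The family 2 genes known mostly from outside the liver gave no call by limma among 6 tested, and 0 had an unadjusted p under 0.05. Cyp2s1, an epithelial P450 gene, lay at 10.71, 10.05 and 10.07, each above a reference of 9.91 (0.36 ± 0.46, limma adjusted p = 0.684). Cyp2j6 lay at 10.54, 9.71 and 10.44 around 10.17. Cyp20a1, an orphan P450 with no settled substrate, was bright in both groups on 1 probe set, at 13.41, 13.77 and 13.68 against 13.08 (0.54 ± 0.26, adjusted p = 0.262). Its dimmer probe sets gave -1.34 and 0.83, so its direction is uncertain.

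Hormone and vitamin P450 genes did not pass limma's adjusted p either, and of the 5 tested only Cyp26a1 had an unadjusted p under 0.05. Cyp11a1, which starts steroid hormone synthesis, lay at 9.57, 7.88 and 8.55 around 9.10 on its only tested probe set. Its dimmer, untested probe sets were at background in all ureters, with 7.16 and 4.39 in the reference. Its level in the ureter is therefore uncertain. Cyp17a1, needed for androgens, was not tested, with all ureters at background and 7.35 in the reference. Cyp26a1, which degrades retinoic acid, lay at 7.33, 5.75 and 5.66 against 8.98 (-2.73 ± 0.95, limma adjusted p = 0.148). Cyp2r1, a vitamin D 25-hydroxylase gene, lay at 9.70, 8.61 and 8.04 over 7.68 (1.10 ± 0.73, adjusted p = 0.418).

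UGT family 2 enzymes glucuronidate steroids, bile acids and drugs. All 5 genes tested had every ureter below the reference, against 30.7% of all genes, and 3 fell, against 4.85%. In 2 of the 5 no ureter exceeded background, and in 1 all 3 did. Ugt2b34 kept a clear level, at 10.09, 10.04 and 10.44 against 13.12 (-2.93 ± 0.38, 7.63-fold lower, limma adjusted p = 0.0152), and a second probe set fell as well (-3.78, adjusted p = 0.0236). Its ureters were the most tightly grouped of these genes and all above background.

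Ugt2b35 lay at 5.36, 4.78 and 4.90 against 11.69, all at background, which is at least 23.7-fold lower (limma adjusted p = 0.0133). Ugt2b5 lay at 5.01, 6.12 and 7.59 against 11.98 (-5.74 ± 1.03, adjusted p = 0.0312), with only ureter replicate 3 above background; its call and that of Ugt2b34 were each kept in 10 of 12 alternatives. Ugt2b1 was at background in all ureters and just missed the threshold (adjusted p = 0.0506). Ugt8a, which belongs to the same superfamily but attaches galactose to ceramide for myelin, lay at 9.29, 8.95 and 8.56 under 9.65 without passing (-0.72 ± 0.49).

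Of the sulfotransferase genes, Sult2a2, of a subfamily that sulfates steroids and bile acids in liver, fell. It lay at 4.21, 5.12 and 4.03 against 10.07, at background in all ureters and at least 7.74-fold lower (limma adjusted p = 0.0385), a call kept in 8 of 10 alternatives. Sult1b1 was at background in the ureters too, at 4.42, 4.56 and 6.15 against 9.38, and did not pass (adjusted p = 0.0795). Sult1a1, a broadly expressed phenol sulfotransferase gene, lay at 9.51, 9.76 and 9.77 just under 10.09, and Sult5a1 at 8.23, 8.92 and 8.07 around 8.59.

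Of the 18 glutathione S-transferase genes tested, 16 exceeded background in all 3 ureters, as did 11700 of all 13718 genes tested. Gsta4, an alpha class enzyme that clears 4-hydroxynonenal, a product of lipid peroxidation, rose. Its levels were 14.88, 14.41 and 14.58 against 12.45 (2.17 ± 0.25, limma adjusted p = 0.0125), and its deposited intensities 28610, 22259 and 24194 against 5265. Neither of the other alpha class genes tested passed: Gsta2 lay at 11.51, 11.98 and 11.78 around 11.59, and Gsta3 at 7.58, 7.71 and 8.14 under 9.57 (-1.76 ± 0.54, adjusted p = 0.115). A second tested probe set of Gsta3 gave -0.20, with the ureters on both sides of the reference. Gsta4 lost its call without ureter replicate 3 (adjusted p = 0.0644) and without the intensity trend (0.0626).

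The mu class genes spread to both sides. Gstm3 lay at 8.04, 8.91 and 7.98 against 10.93 and was called lower at the edge of the threshold (-2.62 ± 0.56, limma adjusted p = 0.0496), a call kept in 3 of 10 alternatives. Gstm1, a major liver and kidney form, lay at 12.04, 10.57 and 12.19, each above 9.93 (1.67 ± 0.68, adjusted p = 0.203). All 4 of its probe sets were higher in every ureter, by 1.67 to 2.47, but only the one with 2.47 passed (adjusted p = 0.0367). Gstm1's brightest probe set and the passing one are of a design that can match several transcripts, so related mu genes may add to their signal. Gstm5, known from brain and testis, lay at 12.00, 11.92 and 12.43 against 12.46.

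Among the other classes, Gstz1, which also acts in tyrosine breakdown, was called lower at 11.10, 11.61 and 11.43 against 13.07 (-1.69 ± 0.35, limma adjusted p = 0.0479), a call kept in 4 of 11 alternatives. Gstt3 lay at 12.32, 11.30 and 11.76 over 9.71 and did not pass (2.08 ± 0.48, adjusted p = 0.0589), next to Gstt1 at 11.78, 10.83 and 11.27 around 11.26. Gstp1, the pi class enzyme of many epithelia, was tightly grouped at 13.06, 12.90 and 12.95, just under 13.55 (-0.58 ± 0.25, adjusted p = 0.220), while its relative Gstp3 was at background in all ureters, at 5.41, 6.52 and 5.07 against 8.60. Gsto1, an omega class gene, lay at 12.83, 13.31 and 13.29 around 13.28, and Gstk1, of mitochondria and peroxisomes, at 10.16, 8.86 and 9.84 under 10.59 (-0.97 ± 0.60).

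**Figure D4:**
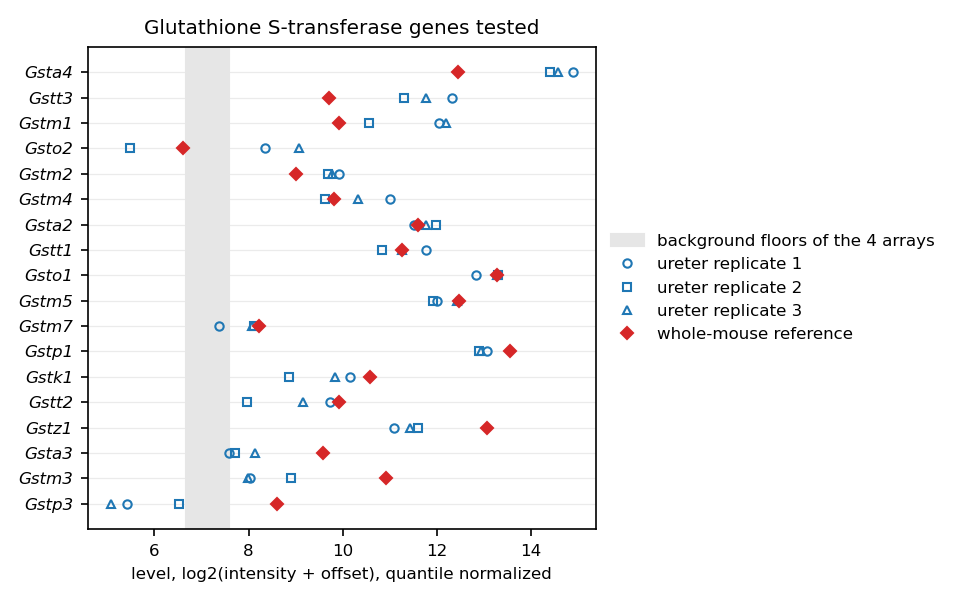
Levels, as log2(intensity + offset) after quantile normalization, of the 18 glutathione S-transferase genes tested, ordered by difference: open symbols are the 3 ureter replicates, red diamonds the reference, and the grey band spans the background floors of the arrays. Gsta4 at the top is clear of its reference, and Gstm3 and Gstz1 lie left of theirs. Without passing, Gstt3 and Gstm1 lie right of their references, and Gstp3 and Gsta3 left. Every ureter lay below the reference for 9 of the 18 genes (30.7% of all genes tested) and above it for 4 (39.9%).

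Many members lie in tandem clusters, here taken as neighbouring member genes with at most 3 other protein-coding genes between them in RefSeq (GRCm38.p6). Within a cluster the differences of the tested genes were often wide. In the Cyp2d cluster on chromosome 15 the 4 tested of 7 genes ran from Cyp2d10, at background in all ureters and at least 45.1-fold lower, to Cyp2d22 (-0.01). In the Gstm cluster on chromosome 3 the 6 tested of 7 ran from -2.62 (Gstm3) to 1.67 (Gstm1). A cluster on chromosome 7 holds Cyp2s1 (0.36) at one end and Cyp2b9 (-3.35) at the other. In the cluster of Ugt2 and Sult1 genes on chromosome 5 the 7 tested of 11 lay between -6.67 and -1.84; the other 4 were too dim to be tested.

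Some members varied between the ureters far more than most genes. The median SD over the 3 ureters was 0.52 for the members tested and 0.32 for all genes tested, and 11 members (13.6%) spanned over 2 log2 units, against 5.52% of all genes. Where all 3 ureters exceeded background, 0 of 39 members did, against 1.72% of all such genes, and the median SDs were 0.36 and 0.29. The 5 widest were Sult1d1, Cyp2d26, Cyp2j5, Gsto2 and Cyp24a1. Sult1d1, which sulfates catecholamines and phenols and is known from kidney, lay at 4.39, 10.59 and 8.91 against 11.36. Cyp2j5, an arachidonate epoxygenase gene of kidney proximal tubule and liver, lay at 4.76, 8.34 and 7.96 against 10.02, and Cyp24a1, which inactivates vitamin D in the kidney, at 5.38, 8.63 and 8.22 against 7.26. In all of these, as in Cyp2d26, ureter replicate 1 was at background and replicate 2 the highest, whereas Gsto2 was lowest in replicate 2 (8.35, 5.48 and 9.07 against 6.60). Over all 81 members tested, replicates 1, 2 and 3 were the lowest in 31, 31 and 19 genes. Over all 13718 genes tested they were the lowest in 4157, 6205 and 3356.

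Markers of kidney tubules, Kap apart, were also lowest in ureter replicate 1. Of 10 such genes, 7 exceeded background in ureter replicate 1 and 10 in each of replicates 2 and 3, and their summed normalized intensity was 1997, 22846 and 14621 in replicates 1, 2 and 3 and 10541 in the reference. The loop of Henle transporter gene Slc12a1 lay at 5.90, 12.04 and 9.49, uromodulin (Umod) at 6.02, 10.99 and 9.92 and the distal tubule calcium-binding protein gene Calb1 at 8.54, 13.45 and 13.03. None of the 10 passed limma's adjusted p against the reference, and 1 had an unadjusted p under 0.05. Their part in the spread of Sult1d1, Cyp2j5 and Cyp24a1 was not tested.

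**Figure D5:**
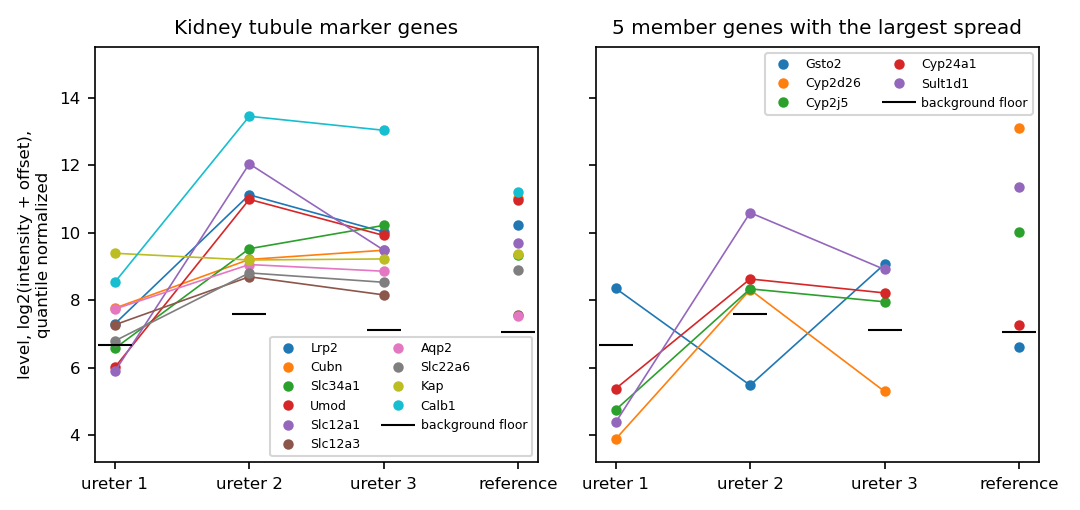
Levels, as log2(intensity + offset) after quantile normalization, of 10 kidney tubule marker genes (left) and of the 5 member genes with the largest SD among the ureters (right) in the 3 ureter replicates, joined by lines, and the reference; black bars mark each array's background floor. Most tubule markers and 4 of the 5 members are lowest in ureter replicate 1; Kap and Gsto2 are exceptions.

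Marker genes of other organs were read beside the members. Of 11 hepatocyte markers tested 10 were lower in the ureters, their summed normalized intensity being 4043, 10155 and 8528 against 464814. The albumin gene Alb lay at 7.08, 10.09 and 10.08 against 16.30, and the fibrinogen gene Fgb at 4.06, 4.63 and 4.51 against 15.49, at background in all ureters. All 6 intestine markers tested were lower, as were 3 of 5 adipocyte and 2 of 4 airway and olfactory markers and 1 of 4 of adrenal gland and gonad, whereas none of the 10 kidney tubule markers passed. Over all genes tested 4.85% were lower. The part of these organs in the differences of the members was not tested.

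Other genes of the detoxification pathway were read from fixed lists. Of 12 regulators tested 1 rose and 1 fell, where the shares over all genes tested were 3.04% and 4.85%. The aryl hydrocarbon receptor gene Ahr, the sensor that switches on family 1 P450 genes, was higher at 14.74, 14.51 and 14.66 against 12.72 (1.92 ± 0.21, limma adjusted p = 0.0106). Nr1h4, the bile acid receptor gene, was lower (-3.04 ± 0.53, adjusted p = 0.0297), and Nfe2l2, which drives antioxidant genes, did not pass (1.22 ± 0.41, adjusted p = 0.139). Hnf4a, a hepatic and renal regulator, was spread over 5.60, 10.65 and 9.70 against 12.92.

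Of 21 other detoxifying enzyme genes tested 3 rose and 3 fell, where the shares over all genes tested were 3.04% and 4.85%. The flavin monooxygenase genes Fmo2 (2.82 ± 0.43) and Fmo5 (2.18 ± 0.37) and the alcohol dehydrogenase gene Adh1 (0.95 ± 0.14) rose. The epoxide hydrolase gene Ephx2 (-4.27 ± 0.35), the carboxylesterase gene Ces1d (-5.02 ± 0.76) and the microsomal transferase gene Mgst2 (-4.02 ± 0.82) fell. By limma's adjusted p none of 6 genes of the P450 electron supply and haem synthesis, of 8 of cofactor synthesis and of 8 efflux transporter genes passed; at an unadjusted p under 0.05 there were 1, 3 and 2. Alas1, the rate-limiting enzyme of haem synthesis outside red cells, differed by -1.21 ± 0.38, Papss2, which makes the sulfate donor, by -1.60 ± 0.37, and the exporter gene Abcc4 by 1.41 ± 0.36.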

How the data were processed

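Transcripts were measured on 4 arrays with 1 colour each. The authors deposited 1 linear intensity per probe set and array, made with GCOS, per the submitters' processing notes; the mean after trimming 2% at each end was 1500 on every array. Background subtraction and a genome build for the arrays are not given in the sources used here. Array medians differed (154.2, 259.1 and 186.6 in the ureters, 332.3 in the reference; log2 span 1.11), so the values, after adding their 10th percentile (12.23) and taking log2, were quantile normalized. The 40% of non-control probe sets with the lowest mean of both groups were left out, leaving 27022.

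Ureters and reference were compared with limma 3.58.1 in R 4.3.3 (lmFit, eBayes with intensity trend, 2 residual degrees of freedom, two-sided, Benjamini-Hochberg over all probe sets tested, threshold 0.05), tested on simulated data. The code for tables and figures ran in Python 3.11.15. "At least" folds set the reference against the mean background floor of the ureters where all 3 were at or below it. The number of arrays limits the precision.

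Names are from the platform annotation; all 150 member identifiers were found in the RefSeq table (GRCm38.p6), with 0 symbols changed. Members, roles and gene lists were chosen with earlier results of these data known, and 1 role pattern that had put Cyp46a1 into family 4 was corrected later. Named genes are all members past the threshold, per role the 2 brightest uncalled and the most different uncalled gene, the 5 with the largest SD, a fixed list of well-known members, and the leading genes of the other lists. Krt5, Des, Umod, Fgb, Fmo5, Adh1, Nfe2l2, Hnf4a, Alas1, Papss2 and Abcc4 were chosen after their values were seen. Alternatives covered scaling, offset, filter, trend, shared-transcript probe sets, probe-set averaging and each ureter left out.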

Additional observations from a re-analysis of the deposited data

How the results depend on the processing

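Scaling, offset, filter, variance trend, the choice of probe sets and each ureter in turn were changed 1 at a time. The fall of Cyp2d10, Cyp2e1, Cyp3a11, Cyp4a14, Cyp2f2, Cyp3a25 and Ugt2b35 passed the threshold in every alternative that tested them. Counts by limma's adjusted p moved as follows, given without the counts over all genes under the same settings. Members called lower numbered 19, and 29 with an offset of 50 (P450 20, SULT 3); leaving out 1 ureter gave 8 to 22 (P450 6 to 15). Members called higher numbered 2, and 1 without the intensity trend; leaving out 1 ureter gave 0 to 4. For GST genes the higher count was 2 with the lowest 60% left out and with the mean of probe sets, 0 without the trend (2 at an unadjusted p under 0.05), and 0 to 3 with 1 ureter left out. The GST lower count was 0 as deposited, with median-centred arrays, with an offset of 1, with no filter, without shared-transcript probe sets and without the trend (2 to 5 at an unadjusted p under 0.05), 1 with the mean of probe sets, and 0 to 2 with 1 ureter left out. The SULT lower count was 0 as deposited, with an offset of 1 and with the lowest 60% left out, and 0 to 1 with 1 ureter left out. The P450 higher count was 0 with the mean of probe sets (3 at an unadjusted p under 0.05) and 0 to 1 with 1 ureter left out. Pathway genes called lower were 2 with no filter, without shared-transcript probe sets and without the trend, and 1 to 5 with 1 ureter left out; those called higher were 0 without the trend (7 at an unadjusted p under 0.05) and 0 to 5 with 1 ureter left out. Genes near 0 with no call changed sign: with median-centred arrays, which moved the median of all probe sets from 0.11 to 0.60, Gstm5 (0.49), Gsto1 (0.72), Gstp1 (0.27), Cyp2d22 (0.40), Cyp1b1 (0.44), Cyp27a1 (0.24) and Sult1a1 (0.062); as deposited (median -0.13) Cyp2d13 (-0.63), Cyp2j6 (-0.11) and Cyp24a1 (-0.62); with the mean of probe sets Cyp2j6 (-0.23), Cyp1b1 (0.85) and Cyp27a1 (0.10); leaving out 1 ureter, with the lowest and highest value, Gsto1 (-0.22 to 0.019), Gstt1 (-0.21 to 0.26), Cyp2d13 (-0.078 to 0.21), Cyp2d22 (-0.17 to 0.29), Cyp2j6 (-0.090 to 0.33) and Cyp24a1 (-0.27 to 1.12). Among the named genes without a call, Cyp2d26, Cyp1a2, Ugt2b1, Cyp4b1, Gstt3, Gstm1 and Sult1b1 passed in at least 1 alternative. The cause of these changes was not tested. No paired analysis was possible because the reference has 1 array.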
